A study of Homo sapiens with 6 samples.

Results

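The 31 genes described here encode enzymes and regulators of cholesterol and fatty acid synthesis, 24 in the sterol branch and 7 in the fatty acid branch. They were listed by name, and each was read from its brightest probe set on average, among those that carry exactly 1 gene symbol. By this rule 29 of the 31 were measured, out of 18417 genes in all, with 22 in the sterol branch and 7 in the fatty acid branch. HSD17B7, a sterol demethylation enzyme, has 1 probe set, which it shares by annotation with the pseudogene HSD17B7P2, and FDFT1, squalene synthase, was not analysed here.

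The cells were U-87, an established human glioma line grown in serum-supplemented medium, so every value comes from 1 line. The arrays labelled P68 knockdown came from cells given a transfected siRNA against P68, the RNA helicase encoded by DDX5, and the other group is labelled P68 wild type. The labels also name a transfection reagent abbreviated NC without saying which arrays received it, and they give no time after transfection. The study's title ties P68 to the phosphatase gene DUSP5, to growth and to invasion. Each group has 3 arrays of total RNA, and no label says whether these were separate cultures, so each p-value is set by how far these arrays spread, possibly for technical reasons alone. In such bulk RNA, fewer cells of a type and less RNA per cell cannot be told apart.

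Cells make cholesterol from acetyl-CoA through mevalonate, squalene and lanosterol, and fatty acids from the same acetyl-CoA through malonyl-CoA. Both routes are driven by membrane-bound transcription factors, the SREBPs, encoded by SREBF1 (mainly fatty acid genes) and SREBF2 (mainly sterol genes). When sterols are scarce, SCAP carries the SREBPs from the endoplasmic reticulum to the Golgi, where proteases free the active part. When sterols are plentiful, INSIG1 and INSIG2 hold SCAP back. Glioma cells are known for high demand on this pathway, and growth factor signalling is known to raise SREBP activity in them.

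SREBPs act at sterol regulatory elements or at an E-box, usually beside boxes for NF-Y and Sp1, so the promoters of 5 members are shown, SREBF2 and INSIG1 because they hold the first 2 motifs and SCD, EBP and MSMO1 because the values below turn on them. Each is the 250 bases before the RefSeq start site (GRCh38.p14), 5′ to 3′ on the gene's strand, which is the plus strand for all 5. Capitals mark the sterol element, the E-box and the NF-Y boxes on either strand. In coordinates these are chr22:41832855-41833104 for SREBF2, chr7:155297628-155297877 for INSIG1, chr10:100346983-100347232 for SCD, chrX:48521558-48521807 for EBP and chr4:165327419-165327668 for MSMO1.
SREBF2: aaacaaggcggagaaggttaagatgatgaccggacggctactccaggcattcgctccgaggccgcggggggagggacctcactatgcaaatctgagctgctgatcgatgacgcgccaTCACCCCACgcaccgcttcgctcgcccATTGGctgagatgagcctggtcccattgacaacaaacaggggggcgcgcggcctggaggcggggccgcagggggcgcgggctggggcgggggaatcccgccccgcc
INSIG1: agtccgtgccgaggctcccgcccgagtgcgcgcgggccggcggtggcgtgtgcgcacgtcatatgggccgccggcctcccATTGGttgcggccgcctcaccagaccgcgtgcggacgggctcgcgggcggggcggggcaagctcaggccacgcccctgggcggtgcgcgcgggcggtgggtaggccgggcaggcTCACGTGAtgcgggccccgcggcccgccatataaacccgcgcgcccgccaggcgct
SCD: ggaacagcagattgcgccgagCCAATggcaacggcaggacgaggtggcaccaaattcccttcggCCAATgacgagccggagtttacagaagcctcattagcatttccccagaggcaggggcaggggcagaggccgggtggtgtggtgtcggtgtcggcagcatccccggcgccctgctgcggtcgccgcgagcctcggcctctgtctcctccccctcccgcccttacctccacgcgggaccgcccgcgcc
EBP: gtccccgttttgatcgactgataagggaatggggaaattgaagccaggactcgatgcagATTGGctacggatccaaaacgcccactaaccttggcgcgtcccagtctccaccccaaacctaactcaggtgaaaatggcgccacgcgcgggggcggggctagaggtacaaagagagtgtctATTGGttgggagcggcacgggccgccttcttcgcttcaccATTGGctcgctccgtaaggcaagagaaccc
MSMO1: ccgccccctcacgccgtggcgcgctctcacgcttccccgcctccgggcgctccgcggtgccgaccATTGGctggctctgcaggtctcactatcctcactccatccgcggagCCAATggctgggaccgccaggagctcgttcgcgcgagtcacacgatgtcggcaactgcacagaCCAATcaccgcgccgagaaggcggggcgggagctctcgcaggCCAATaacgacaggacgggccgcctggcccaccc

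RefSeq windows of 300 bases (250 before to 50 after a start) were found for 27 of the 31 genes, 37 windows in all, since some genes have several starts. The motifs were searched on both strands, and no motif contains another. The sterol element tcacnccac was found in 1 of the 37 windows (2.7%), that of SREBF2 at position -133, and in 1.13% of all 35116 windows. The same window holds an NF-Y box at -106. The E-box tcacgtga, a palindrome, was likewise found in 1 of the 37 (2.7%), that of INSIG1 at position -56, and in 0.98% of all windows. The NF-Y box ccaat was in 24 of the 37 (64.9%) against 34.6% of all, with 4 copies in MSMO1, 3 in EBP and 2 in SCD. Windows of MVK and NSDHL, not shown here, held 5 copies each. The Sp1 box gggcgg was in 33 of the 37 (89.2%) against 45.0% of all. Windows of a gene can overlap, as for ACLY, so 1 motif can count in several windows. By gene, the NF-Y box was in 20 of the 27 and the Sp1 box in 26. These are exact matches of letters to 1 pattern per motif, and no binding was measured. A window without a match may still hold a variant of the motif or a motif further away.

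The array signals are log2 values made with RMA, which normalises across arrays, and array medians lay between 4.32 and 4.37. DDX5, the targeted gene, gave 9.47, 9.79 and 9.91 on the knockdown arrays and 10.09, 10.25 and 10.30 on the wild-type arrays, so every knockdown array was lower, and its difference on the log2 scale was -0.49 ± 0.13 (SE), with an adjusted p of 0.902 by limma. DUSP5, named with P68 in the study's title, gave 5.78, 5.80 and 5.62 against 5.44, 5.32 and 5.28, higher on every knockdown array. Of 8 markers of glioma lines, VIM lay between 7.25 and 7.94 and 4 (CD44, SOX2, S100B and FABP7) were among the dimmest 40% of genes, where a signal may lie near background and no detection call was used. CD44 is known to be abundant in U-87 cells and lay between 3.48 and 3.80 here, so a place among the dimmest 40% does not show that a gene was not expressed, which holds for the 8 lipid genes found there. FABP7 was higher on every knockdown array, by 0.43 ± 0.11 (SE). Of 25 measured markers of other cell types in 6 lists, 5 were higher on every knockdown array than on any wild-type array, against 5.98% of all genes. The summed linear signal of the list was higher on every knockdown array for 4 of the 6 lists. These were neurons (134.3 to 140.6 in the knockdown against 126.0 to 128.4 in the wild type), endothelium (113.9 to 123.4 against 103.4 to 109.6) and hepatocytes (112.1 to 122.3 against 103.5 to 111.1). The fourth was microglia and leukocytes, at 87.5 to 101.8 against 76.3 to 82.8, where CD68 and CD14 were higher on every knockdown array and the defining markers PTPRC and AIF1 lay between 2.49 and 2.93, among the dimmest 40%. The log2 difference, knockdown minus wild type, was below 0 for 1 of 4 neuron markers (SNAP25) and 1 of 4 endothelial markers (CDH5). It was also below 0 for 2 of 4 hepatocyte markers (ALB and CYP7A1) and 2 of 5 microglia and leukocyte markers (PTPRC and AIF1). The part of the signals of these lists in the values of the lipid genes was not tested.

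No lipid synthesis gene passed the threshold, an adjusted p under 0.05 by limma over all 18417 genes. The 29 adjusted p-values lay between 0.902 and 0.995. Over all genes 0 passed (0.0%), while 937 (5.09%) had an unadjusted p under 0.05, as did 1 of the 29 members, SCD. The members' log2 differences, knockdown minus wild type, ran from -0.51 for SCD to 0.21 for SREBF1, and 28 of 29 were smaller than 0.25 in size, against 91.9% of all genes. The sterol branch had 10 members above 0 and 12 below, with a median of -0.030, whereas all 7 members of the fatty acid branch lay below 0, with a median of -0.11. For all genes 46.5% lay below 0 and the median was 0.010. Without wild-type replicate 1, 7 of 22 sterol members and 4 of 7 fatty acid members lay below 0, and the medians were 0.038 and -0.022. Without knockdown replicate 2, the fatty acid median was -0.035, with all 7 members still below 0. Standard errors of the members ran from 0.095 to 0.28.

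**Figure D1:**
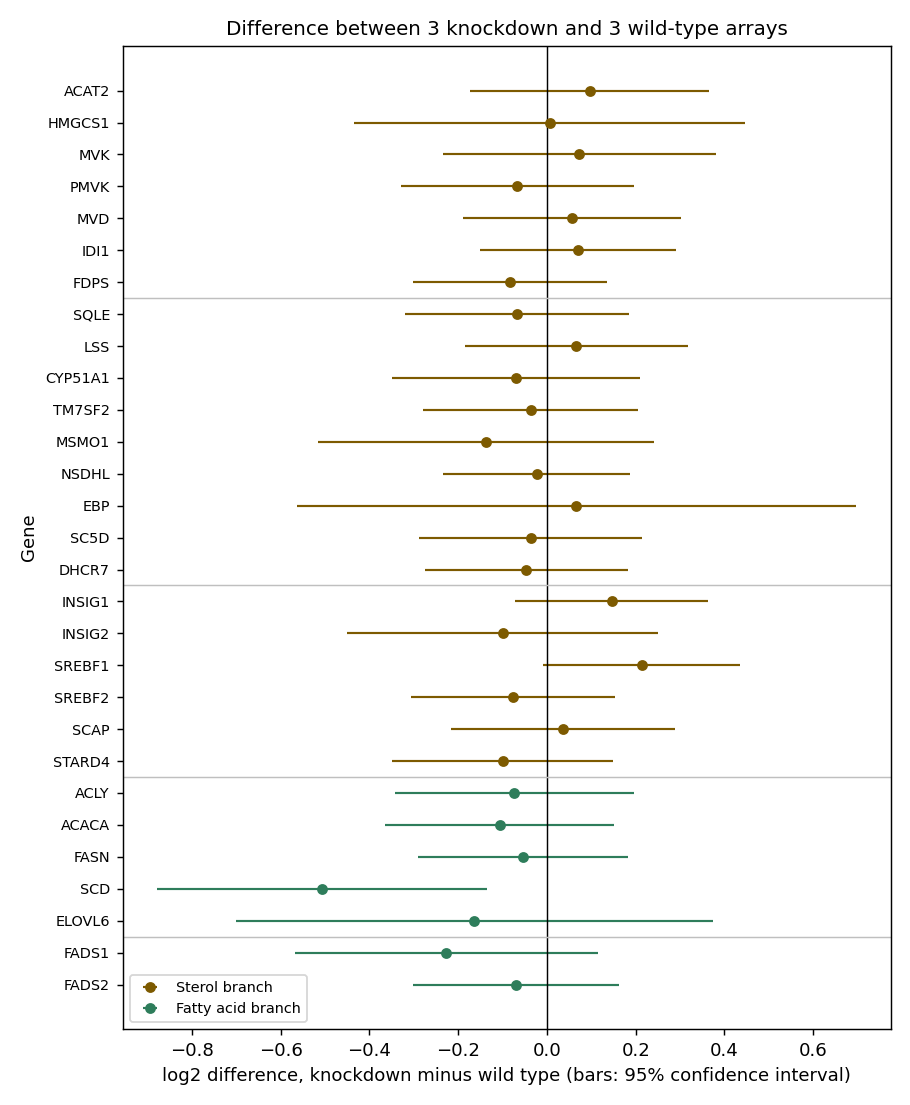
Each point is the log2 difference of a gene, knockdown minus wild type (3 arrays each), and each bar its 95% confidence interval from limma, with grey lines between mevalonate steps, later sterol steps, sterol sensing, fatty acid synthesis and desaturation. The interval of SCD, from -0.88 to -0.14, is the only one of the 29 that leaves out 0.

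The sensors and switches come first. SREBF1 gave 5.50, 5.57 and 5.51 on knockdown arrays 1, 2 and 3, and 5.39, 5.20 and 5.35 on the wild-type arrays. Every knockdown array was thus above every wild-type array, and the 3 knockdown arrays lay closer together than the wild-type arrays. The knockdown averaged 5.53 ± 0.038 and the wild type 5.31 ± 0.10 (SD, n = 3 each). This is a step of 0.21 ± 0.10 (SE) in log2, or 116% of the wild type (95% interval 99.4% to 135%), with an adjusted p of 0.902 by limma. SREBF2 gave 5.75, 5.86 and 5.87 on the knockdown arrays and 5.89, 6.02 and 5.80 on the wild-type arrays. These groups overlapped, with a log2 difference of -0.077 ± 0.10 (SE), 94.8% of the wild type (95% interval 80.9% to 111%). SCAP, the escort of both, gave 6.26, 6.31 and 6.07 against 6.10, 6.33 and 6.10, overlapping throughout, with a difference of 0.037 ± 0.11 (SE).

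INSIG1, itself an SREBP target, gave 4.03, 4.07 and 3.90 on the knockdown arrays and 3.83, 3.87 and 3.86 on the wild-type arrays. The groups did not overlap, although knockdown replicate 3 (3.90) lay close to the highest wild-type array (3.87). Its log2 difference was 0.15 ± 0.10 (SE), 111% of the wild type (95% interval 95.2% to 129%), with an adjusted p of 0.902 by limma, and the gene was among the dimmest 40%. INSIG2, its paralog, gave 5.38, 5.20 and 5.20 against 5.70, 5.36 and 5.02, so both the highest and the lowest value were in the wild type. The log2 difference was -0.10 ± 0.16 (SE), and 0.070 without wild-type replicate 1. STARD4, a carrier of cholesterol between membranes, gave a difference of -0.10 ± 0.11 (SE). Of the 29 members SREBF1 and INSIG1 were the 2 whose knockdown arrays were all higher, a pattern seen in 5.98% of all genes. In exact permutation tests (two-sided) both gave p = 0.1, the smallest that 3 against 3 allows. No member was lower on all knockdown arrays, against 4.15% of all genes.

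**Figure D2:**
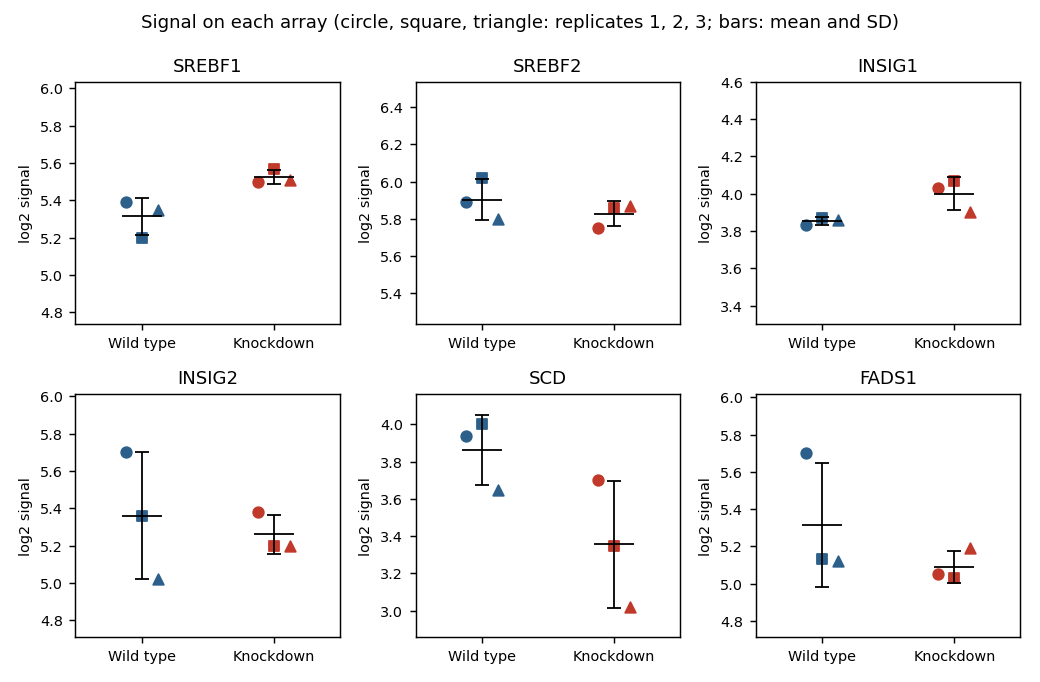
log2 signal on the 3 wild-type (blue) and 3 knockdown (red) arrays for 6 genes, with the mean and SD of each group as bars and panels of one height. The SREBF1 and INSIG1 groups do not overlap, and the wild-type replicate 1 points of INSIG2 (5.70) and FADS1 (5.70) lie above all other points of their panels.

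Paralogs were compared within each array, as the log2 signal of one gene minus that of the other, which cancels a scale shared by an array. The level of such a ratio depends on the probe sets, so the groups alone are compared. SREBF1 minus SREBF2 was -0.25, -0.29 and -0.36 on the knockdown arrays and -0.50, -0.82 and -0.45 on the wild-type arrays. The ratio was higher on every knockdown array, by 0.29 between the means (exact permutation p = 0.1, adjusted p = 0.3 over 3 pairs). It reuses the SREBF1 values given above, so it is not a separate result. The 3 pairs were chosen after their values were seen, which the adjustment does not cover. INSIG1 minus INSIG2 was higher by 0.25, with overlap (exact permutation p = 0.4, adjusted p = 0.4). For the neighbouring genes FADS1 and FADS2 the difference between the groups was -0.16 (exact permutation p = 0.3, adjusted p = 0.4). A p under 0.05 was out of reach for all 3, since 3 against 3 arrays allow no exact permutation p below 0.1.

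In the fatty acid branch SCD showed the largest difference of all 29 members. SCD, the desaturase that makes monounsaturated from saturated fatty acids, gave 3.70, 3.35 and 3.02 on the knockdown arrays and 3.94, 4.0 and 3.65 on the wild-type arrays. The groups overlapped, since knockdown replicate 1 (3.70) lay above wild-type replicate 3 (3.65), and the knockdown arrays spread over 0.68. The knockdown averaged 3.36 ± 0.34 and the wild type 3.86 ± 0.19 (SD, n = 3 each), so that SCD stood at 70.4% of the wild type (95% interval 54.4% to 91.0%), a step of -0.51 ± 0.17 (SE) in log2. Its limma p was 0.0122 unadjusted and 0.902 adjusted, and an unadjusted p under 0.05 with a lower knockdown was found for 2.06% of all genes. The exact permutation test (two-sided) gave p = 0.2 for SCD. Without knockdown replicate 3 the difference was -0.34 with an unadjusted p of 0.0563 (limma), and SCD too was among the dimmest 40%.

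FADS1, the delta-5 desaturase of polyunsaturated fatty acids, gave 5.05, 5.03 and 5.19 on the knockdown arrays and 5.70, 5.13 and 5.12 on the others. Wild-type replicate 1 alone stood above the other 5 arrays, and the log2 difference of -0.23 ± 0.15 (SE) was -0.035 without it. ELOVL6, which elongates palmitate to stearate, gave 6.27, 5.54 and 5.63 against 6.46, 5.97 and 5.50. Replicate 1 was the highest of each group, and the log2 difference of -0.16 ± 0.24 (SE) was 0.078 without wild-type replicate 1 and -0.40 without wild-type replicate 3. The remaining members of the branch lay within about a standard error of 0. ACLY, which makes cytosolic acetyl-CoA from citrate, gave -0.073 ± 0.12 (SE), ACACA, which makes malonyl-CoA, gave -0.11 ± 0.12 (SE) and FASN, the fatty acid synthase, gave -0.053 ± 0.11 (SE). FADS2, the delta-6 desaturase, gave -0.070 ± 0.10 (SE).

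Among the enzymes that lead to farnesyl diphosphate, 5 of 7 lay above 0, with a median of 0.057, and 3 of 7 without knockdown replicate 1, with a median of -0.0067. ACAT2, which condenses acetyl-CoA, gave 3.86, 3.57 and 3.44 on the knockdown arrays and 3.57, 3.53 and 3.48 on the others. The knockdown arrays held both extremes, and the log2 difference of 0.097 ± 0.12 (SE) was -0.022 without knockdown replicate 1. HMGCS1, which forms HMG-CoA, gave 5.53, 5.11 and 5.15 against 5.75, 5.07 and 4.95. Replicate 1 was again the highest of each group, the means of 5.26 ± 0.23 and 5.26 ± 0.43 (SD, n = 3 each) were alike, and the difference was 0.0067 ± 0.20 (SE), with an interval of -0.43 to 0.45. MVK, mevalonate kinase, gave 4.91, 4.95 and 4.53 against 4.55, 4.89 and 4.73, a difference of 0.073 ± 0.14 (SE) with overlap. IDI1, the isopentenyl diphosphate isomerase, gave 2.81, 2.79 and 2.94 against 2.85, 2.74 and 2.74, a difference of 0.070 ± 0.10 (SE), and was among the dimmest 40% of genes. FDPS, farnesyl diphosphate synthase, gave 3.98, 4.12 and 4.07 against 4.16, 4.19 and 4.07, a difference of -0.083 ± 0.10 (SE), and 2 further probe sets that it shares with the pseudogene FDPSP2 were not used. PMVK and MVD, the kinase and decarboxylase after MVK, gave -0.067 and 0.057. All of these groups overlapped.

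From squalene to cholesterol, 7 of the 9 measured enzymes lay below 0, with a median of -0.037. Without wild-type replicate 1, 2 of the 9 lay below 0 and the median was 0.035. MSMO1, a sterol methyl oxidase, gave 3.13, 2.66 and 2.78 on the knockdown arrays and 3.35, 2.75 and 2.88 on the others, with replicate 1 the highest of each group. Its difference of -0.14 ± 0.17 (SE) was the largest of the sterol enzymes, and 0.042 without wild-type replicate 1. CYP51A1, the lanosterol demethylase, gave 7.75, 7.53 and 7.60 against 7.94, 7.59 and 7.56, a difference of -0.070 ± 0.13 (SE), while its second probe set gave 0.11 and the mean of both 0.018. EBP, the sterol isomerase, gave 5.42, 4.80 and 5.06 against 5.81, 4.62 and 4.65. The 3 wild-type arrays of EBP spanned 1.19, and its within-group SD, pooled over both groups, was above that of 99.7% of all genes. The difference of 0.067 ± 0.28 (SE) was 0.46 without wild-type replicate 1, with an unadjusted p of 0.0233 (limma). The other 6 lay close to 0, with SQLE (squalene epoxidase) at -0.067, LSS (lanosterol synthase) at 0.067, TM7SF2 (a sterol reductase) at -0.037, NSDHL (a sterol dehydrogenase) at -0.023, SC5D (a sterol desaturase) at -0.037 and DHCR7 (a late sterol reductase) at -0.047. NSDHL varied least, from 4.34 to 4.44 over the 6 arrays.

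**Figure D3:**
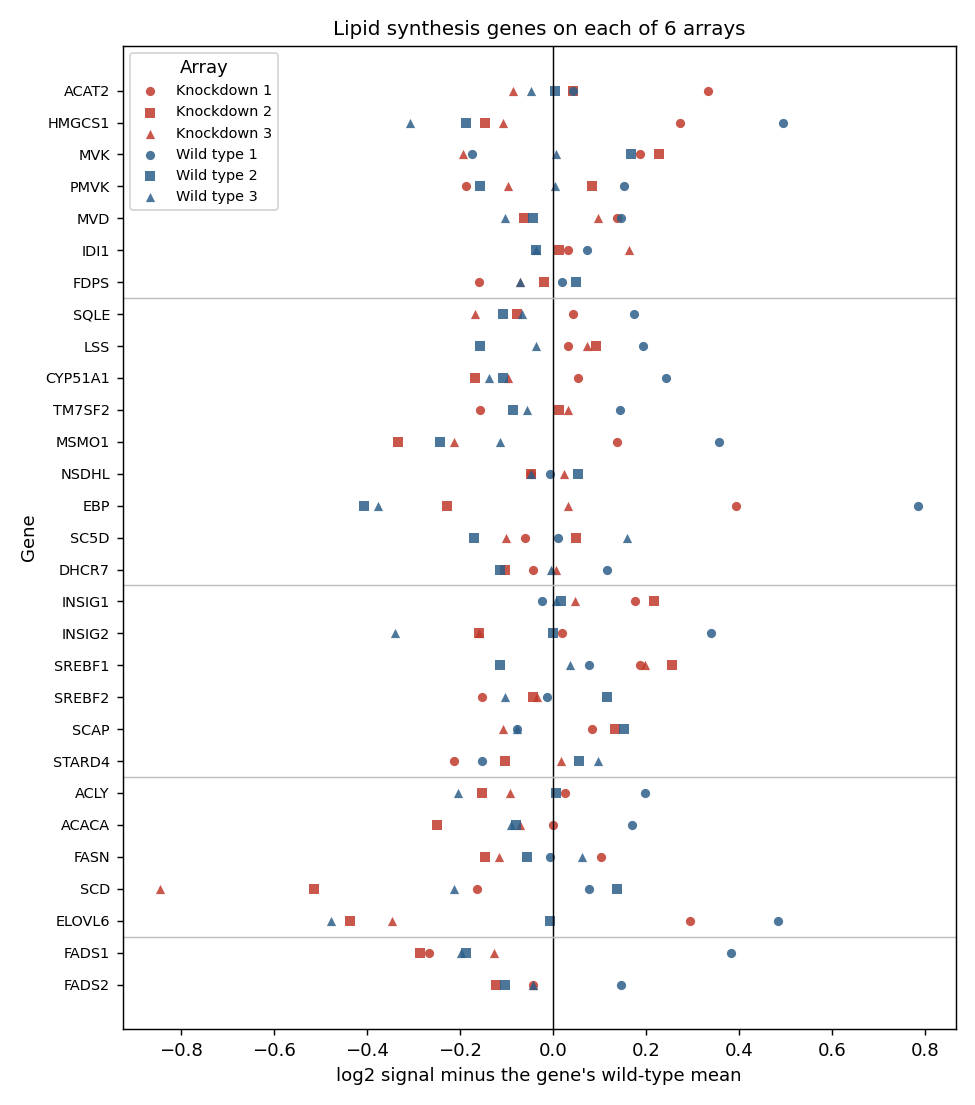
log2 signal of the 29 measured genes on each array, minus the gene's own wild-type mean, with knockdown in red, wild type in blue and the replicates as circles (1), squares (2) and triangles (3). Wild-type replicate 1 is the rightmost point for 16 of the 29 genes.

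Several members stood apart on single arrays. Wild-type replicate 1 was the highest of the 6 arrays for 16 of the 29 members (55.2%), counting ties, against 16.0% of all genes. It was above the mean of wild-type replicates 2 and 3 for 14 of 16 sterol enzymes and 6 of 7 members of the fatty acid branch, against 51.1% of all genes. Against that mean it was higher by 1.18 for EBP, 0.74 for HMGCS1, 0.72 for ELOVL6, 0.57 for FADS1, 0.54 for MSMO1 and 0.51 for INSIG2. The median of this excess was 0.22 over the members and 0.005 over all genes. Knockdown replicate 1 stood above the mean of knockdown replicates 2 and 3 by 0.68 for ELOVL6, 0.52 for SCD, 0.49 for EBP, 0.41 for MSMO1 and 0.40 for HMGCS1, with a median of 0.070 over the members and -0.015 over all genes.

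Other members, enzymes as well as regulators, stood apart less on wild-type replicate 1. Against the mean of wild-type replicates 2 and 3, SREBF1 was at 0.12, SREBF2 at -0.020 and INSIG1 at -0.035. Of the enzymes, SCD was at 0.12, FDPS at 0.03 and FASN at -0.01. INSIG2 and STARD4, also of the sterol sensing and transport genes, were at 0.51 and -0.23. The median deviation of the fatty acid branch from each gene's 6-array mean was 0.063, -0.17 and -0.057 on knockdown arrays 1, 2 and 3 and 0.23, -0.027 and -0.037 on the wild-type arrays. For the 16 sterol enzymes it was 0.038, -0.028 and -0.045 against 0.15, -0.073 and -0.042. In both branches wild-type replicate 1 was highest and knockdown replicate 1 second, and the other 4 arrays lay below 0. The cause was not tested.

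**Figure D4:**
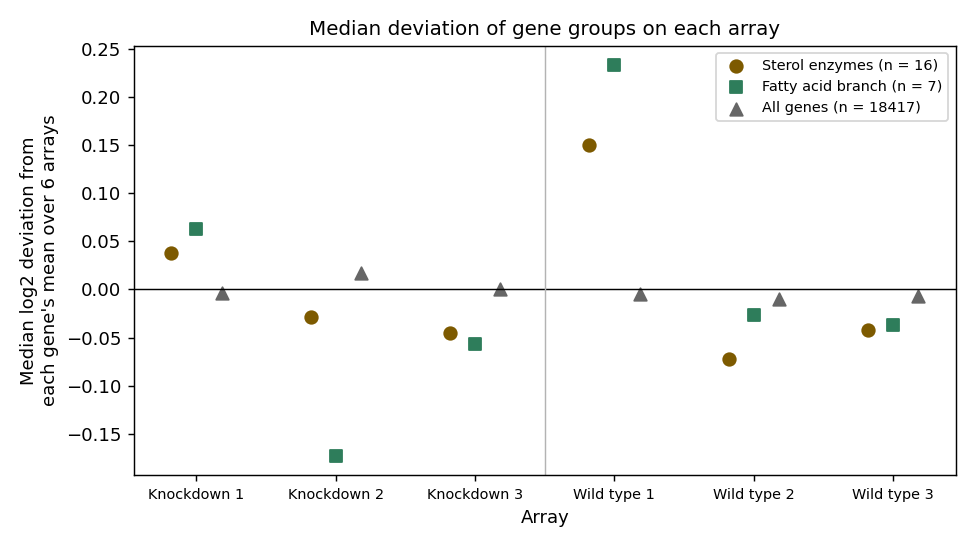
Median log2 deviation from each gene's mean over the 6 arrays, for 16 sterol enzymes (circles), 7 fatty acid genes (squares) and all 18417 genes (triangles), by array. All genes stay between -0.010 and 0.017, while wild-type replicate 1 reaches 0.15 for sterol enzymes and 0.23 for fatty acid genes.

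The neighbouring pathways were read from 8 lists with 124 measured genes. Of these 124, 5 had an unadjusted p under 0.05 (3 higher, 2 lower), which is near the 5.09% of all genes, and none passed the adjusted threshold. All knockdown arrays were higher for 2 of the 124 and lower for 6, against 5.98% and 4.15% of all genes. Of 17 genes of SREBP processing and INSIG turnover, 13 lay below 0 (median -0.12), with 10 without knockdown replicate 2 and a median of -0.063 without wild-type replicate 2. UFD1, a cofactor of the segregase VCP in protein degradation, averaged 5.93 ± 0.17 under knockdown against 6.26 ± 0.053 (SD, n = 3 each), and RNF145, a ubiquitin ligase of the sterol response, gave 6.57 ± 0.19 against 6.87 ± 0.047. Both were lower on every knockdown array, with adjusted p = 0.902 by limma. Of 11 genes that supply acetyl-CoA, malonyl-CoA and NADPH, 10 lay below 0, with a median of -0.083. With single arrays left out 8 to 10 lay below 0, and the medians ran from -0.13 to -0.075. The mitochondrial malic enzyme ME2 was at -0.21 ± 0.12 (SE). The acetyl-CoA carboxylase ACACB was at -0.19 ± 0.11 (SE) and lower on every knockdown array. Of 20 genes of fatty acid oxidation, 13 lay below 0 (median -0.063, or -0.035 without knockdown replicate 3), with HADHB, of the trifunctional protein, at -0.19 and the lipid-sensing receptor PPARA at 0.29.

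Sterol export, transport and storage lists lay nearer to 0, and each of the following 5 medians changed sign without at least 1 of the 6 arrays. The 13 genes of efflux, esterification and the LXR pathway had a median of 0.037, with the LXR partner RXRA at 0.27 ± 0.11 (SE) and the cholesterol hydroxylase CH25H at 0.28 ± 0.15 (SE). The 19 genes of uptake and intracellular transport had a median of -0.0033, with the endosomal sterol carrier STARD3 at 0.28 ± 0.12 (SE) and higher on every knockdown array, and the oxysterol-binding protein family member OSBPL8 at -0.22. The 12 genes of the nonsterol isoprenoid branch had a median of -0.0033, with RCE1, a prenyl protein protease, at -0.11 and RABGGTB, a prenyltransferase subunit, at -0.093. The 17 further elongation, desaturation and activation genes had a median of 0.017, with the acyl-CoA synthetases ACSL5 at -0.27 and ACSL6 at 0.17. The 15 glycerolipid genes had a median of 0.0067. Among them DGAT2, which makes triacylglycerol, gave 5.69, 5.90 and 5.77 against 5.45, 5.49 and 5.41, higher on every knockdown array. Its log2 difference of 0.34 ± 0.10 (SE) had an adjusted p of 0.902 by limma. The acyltransferase AGPAT4 gave -0.23 ± 0.11 (SE) and was lower on every knockdown array.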

How the data were processed

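Total RNA of 6 samples was measured on an Affymetrix gene-level array. The deposited values are log2 signals, made with RMA per the submitters' processing notes and rounded to 2 decimals; its version is not given in the sources used here. Detection calls were not used. Probe sets were named through the platform annotation (19460 with 1 symbol, 1754 with several, 7882 with none), and for each of 18417 genes the brightest probe set on average was kept. The groups were compared over all genes with limma 3.58.1 in R 4.3.3 (lmFit and eBayes, two-sided, group as the only term), with Benjamini-Hochberg adjustment and a threshold of 0.05. The fit was tested on simulated data. The members and lists were chosen with earlier results of these data known. All 29 members are named. Values of every array are given for SREBF1, SREBF2, SCAP, INSIG1, INSIG2, DDX5, DUSP5, the 5 sterol enzymes (with ties) and 3 fatty acid genes of largest absolute difference and members whose groups did not overlap, and each other list is represented by its 2 genes of smallest unadjusted p. The array values of HMGCS1, EBP and DGAT2, the paralog pairs, the description of replicate 1 and the counts and medians of lists under other settings were chosen after their values were seen. Promoter sequences are from RefSeq. Alternatives were a replicate block, array weights, robust estimation with an intensity trend, removal of each array in turn, a threshold of 0.1, the mean over probe sets, removal of the dimmest 40% of genes, and 3 normalisations (median centring, cyclic loess and quantile once more).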

Additional observations from a re-analysis of the deposited data

How the results depend on the processing

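No gene of the 18417 passed an adjusted p of 0.05 by limma under any alternative, nor 0.1, and the lowest adjusted p of a member in any of them was 0.661. Precision is limited by having 3 arrays per group, and the standard error had a median of 0.12 over all genes. The count of members with an unadjusted p under 0.05 was 1 (SCD), became 0 with the dimmest 40% of genes left out, which removes SCD, and 2 with array weights (SREBF1 and SCD), and with single arrays left out lay between 0 (knockdown replicate 3 removed) and 2 (wild-type replicate 1 removed, EBP and SCD). With the replicate block it was 1, and the block changed no other call. Under the block the unadjusted p (limma) was 0.0016 for SCD and 0.0793 for SREBF1, against 0.0122 and 0.058 without it. Over all genes the deviations of same-numbered arrays correlated at r = 0.268 (replicate 1), -0.027 (replicate 2) and 0.125 (replicate 3). For arrays of unlike number r lay between -0.251 and 0.17. These values cannot decide whether arrays were paired, since the deviations of 3 arrays from their own mean depend on each other. The labels give no batch, and the numbers were not taken as pairs. The branch medians moved by less than the spread between arrays of a group, between -0.065 and 0.038 (sterol) and between -0.175 and -0.022 (fatty acid) with single arrays left out. Members below 0 numbered 7 to 14 of 22 in the sterol branch and 4 to 7 of 7 in the fatty acid branch, the low ends without wild-type replicate 1.

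Of 29 members, 11 kept their sign wherever tested, though 5 of these are among the dimmest 40% and have no value with those genes left out. HMGCS1 turned to -0.0067 with median centring, -0.012 with repeated quantile normalisation and -0.014 with cyclic loess, CYP51A1 to 0.018 with the mean over probe sets, and MVK to -0.035, TM7SF2 to 0.0065 and SCAP to -0.013 with array weights. With single arrays left out, differences ran from -0.022 to 0.19 for ACAT2, from -0.15 to 0.25 for HMGCS1, from -0.013 to 0.21 for MVK, from -0.14 to 0.01 for PMVK, from -0.12 to 0.02 for SQLE, from -0.012 to 0.16 for LSS, from -0.14 to 0.052 for CYP51A1, from -0.08 to 0.035 for TM7SF2, from -0.27 to 0.042 for MSMO1, from -0.047 to 0.0033 for NSDHL, from -0.14 to 0.46 for EBP, from -0.12 to 0.043 for SC5D, from -0.10 to 0.012 for DHCR7, from -0.27 to 0.07 for INSIG2, from -0.012 to 0.11 for SCAP, from -0.17 to 0.025 for ACLY, from -0.40 to 0.078 for ELOVL6 and from -0.12 to 0.0033 for FADS2. The cause of these turns was not tested.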
